A study of Mus musculus with 6 samples.

Results

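Transcripts of the integrated stress response that runs through the transcription factor ATF4 were followed in the livers of pregnant mice. The 10 genes, Eif2ak3, Atf4, Atf5, Ddit3, Asns, Chac1, Sesn2, Ddit4, Trib3 and Ppp1r15a, were taken from the table of 56691 genes by matching their symbols to Ensembl identifiers, and all 10 had a row. Poly(A) RNA of whole liver was sequenced from wild-type female mice, described by the study as C57BL/6J, in 6 libraries. The PF group (n = 3) was pregnant and fed a high-fructose diet (HFrD) during the later part of pregnancy, and the PC group (n = 3) was pregnant and fed normal chow (NC). No allele was altered in either group, and the sources used here give neither the age of the animals nor the litter or batch of a library. Libraries are called PF1 to PF3 and PC1 to PC3 after their labels.

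The integrated stress response begins when one of a small family of kinases phosphorylates the translation initiation factor eIF2. Among these kinases PERK, the product of Eif2ak3, senses unfolded protein in the endoplasmic reticulum, GCN2 senses uncharged tRNA, PKR senses double-stranded RNA and HRI senses haem shortage and mitochondrial stress. Phosphorylated eIF2 blocks its exchange factor eIF2B, general translation falls, and a few mRNAs with upstream open reading frames, Atf4 and Atf5 among them, are translated more. ATF4 then raises transcription of genes for amino acid supply, tRNA charging, restraint of the growth kinase mTORC1 and, together with CHOP, cell death, and it also raises the genes that close the response again. Much of this control acts on phosphorylation and translation, which mRNA counts do not measure.

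ATF4 binds together with C/EBP factors to a short promoter element, the C/EBP-ATF response element (CARE), whose core TGATGNAA was searched on both strands. Promoter windows came from RefSeq (assembly GRCm38.p6, 250 bases before to 50 bases after each gene's start), and all 10 genes had at least 1 window. The core was present in 3 of the 10 genes, Chac1, Trib3 and Asns, beside 3.97% of all 32851 windows and 4.51% of the 27025 genes with a window. These stretches of 30 bases are shown because they set apart the 3 genes with the lowest transcript levels of the group. The capitals mark the core, and each stretch is printed 5′ to 3′ on the strand that carries it.
Chac1: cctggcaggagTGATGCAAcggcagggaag
Trib3: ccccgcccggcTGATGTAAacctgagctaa
Asns: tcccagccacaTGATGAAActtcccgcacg
The Chac1 stretch lies at chr2:119351038-119351067 (GRCm38.p6) on the minus strand, and the leftmost base of its core, read along the gene, is at position -193 counted from the start of the gene. The Trib3 stretch lies at chr2:152344028-152344057 on the plus strand, with the core beginning at position 15 inside the transcribed part. The Asns stretch lies at chr6:7693214-7693243 on the minus strand, with the core beginning at position -23. A match is a description of the letters only, and a core outside these windows would not have been seen. The endoplasmic reticulum stress element, CCAAT followed after 9 bases of any kind by CCACG and searched on both strands, serves the ATF6 arm of the unfolded protein response. It was present in the window of 0 of the 10 genes and in 0.137% of all genes with a window.

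The libraries held 16119145 to 19676361 counts, and edgeR's quasi-likelihood test was run on the 10756 genes whose mean level reached 1 FPKM. FPKM is the count scaled by exonic length and by the library's total, and CPM is the count scaled by the library's total after TMM correction, which corrects for a few genes taking much of a library. The share of counts from albumin was 7.56% to 15.8% in PF, highest in PF2, and 18.1% to 19.9% in PC. Of 8 hepatocyte markers, at an unadjusted p under 0.05 there were 1 higher and 3 lower in PF. Over all tested genes the shares were 9.13% higher and 7.90% lower. The summed level of the 8 markers was 86943 to 197893 CPM in PF and 248662 to 299396 CPM in PC, without overlap. Such a sum follows its most abundant markers, so it does not show that the 8 fell together. Summed markers of Kupffer cells, sinusoidal endothelium, stellate cells, bile duct, T cells, B cells, neutrophils and erythroid cells overlapped between the groups. Ly6g, a neutrophil marker, was at 0 in some libraries. The part of these differences in the results for the stress genes was not tested, and in whole liver fewer cells of a type and less RNA per cell cannot be told apart.

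No difference in the 10 stress genes passed the 5% threshold in the edgeR test. None of the 7 that were tested passed 5% in edgeR, as none of the 10756 genes did (0.00%), and none passed in DESeq2, which called 4.60% of the tested genes. At an unadjusted p under 0.05, 1 of the 7, Sesn2, was higher in PF and 0 were lower, beside 17.0% of all tested genes in either direction by edgeR and 16.9% by DESeq2, and Sesn2 was also the only one of the 7 whose groups did not overlap, beside 22.9% of all tested genes. Asns, Chac1 and Trib3 had mean levels of 0.183, 0.373 and 0.832 FPKM and were not among the tested genes. Their fold changes come from the same edgeR test run on all 28042 genes with at least 1 count, of which 1.98% were called.

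**Figure D1:**
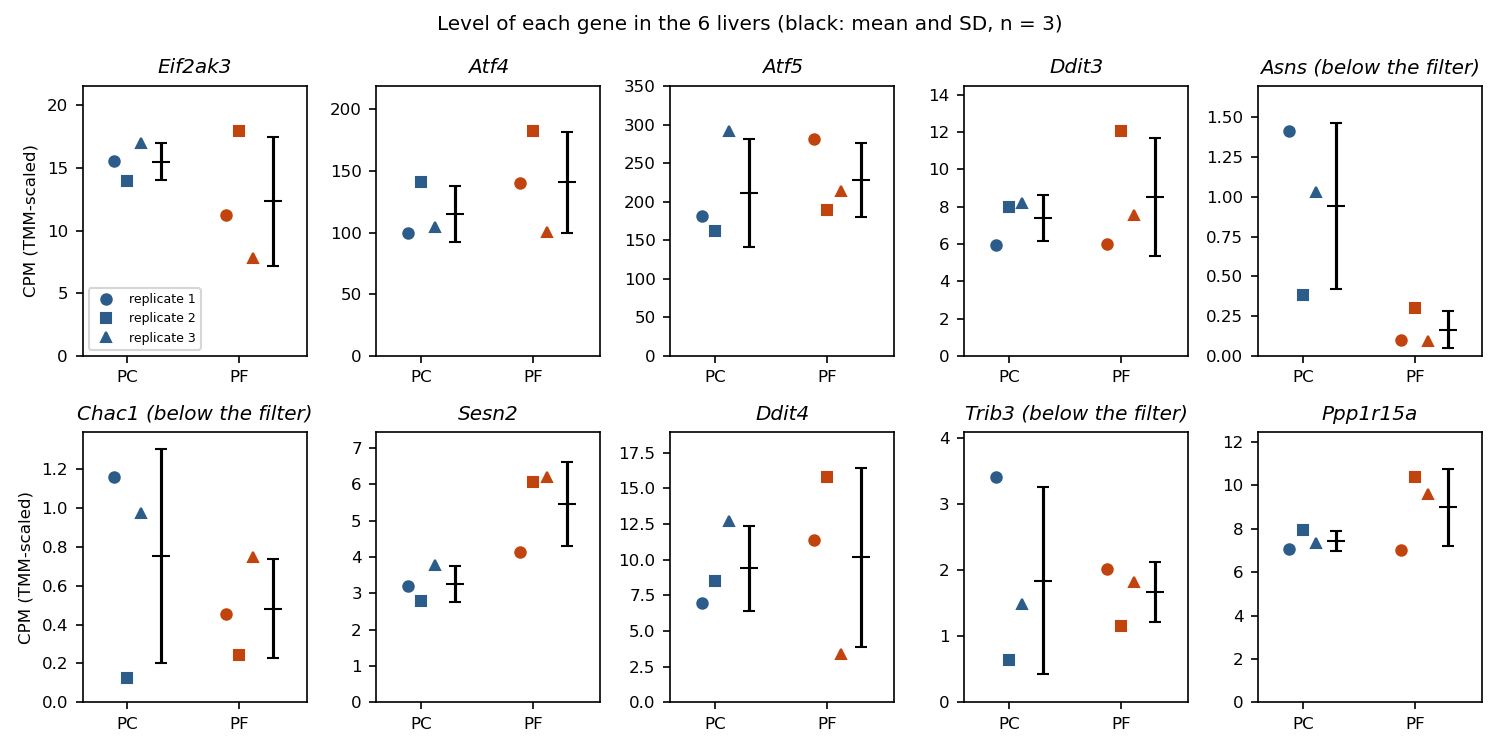
Level of each of the 10 genes in CPM (linear axis from 0, a scale of its own in each panel) in the 3 PC and the 3 PF libraries, with the replicate number of the label as symbol and the mean and SD in black. The PF points lie above the PC points for Sesn2 (4.13 to 6.18 against 2.80 to 3.78 CPM) and below them for Asns (0.0937 to 0.303 against 0.381 to 1.41 CPM), and the groups overlap in the other 8 genes.

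Per length, the transcripts were ordered as follows in these livers. The transcription factor genes Atf5 (mean 113 FPKM) and Atf4 (55.0 FPKM) were far above the rest. Atf5 had 132 ± 40.4 FPKM in PF and 93.8 ± 31.6 FPKM in PC (SD, n = 3), and Atf4 had 66.9 ± 13.5 FPKM in PF and 43.2 ± 9.69 FPKM in PC, so the order of these neighbours was the same in both groups. Next came Ddit4 (5.56 FPKM), Ddit3 (4.67 FPKM), Ppp1r15a (2.84 FPKM), Eif2ak3 (2.27 FPKM) and Sesn2 (1.30 FPKM). The means of Ddit4 and Ddit3 lay within their SDs of each other in both groups, with 6.38 ± 3.54 and 5.52 ± 1.32 FPKM in PF and 4.73 ± 1.56 and 3.81 ± 0.739 FPKM in PC. Ppp1r15a (2.24 ± 0.211 FPKM) and Eif2ak3 (2.27 ± 0.206 FPKM) could not be ordered in PC, nor could Eif2ak3 (2.26 ± 0.686 FPKM) and Sesn2 (1.78 ± 0.348 FPKM) in PF. The effector genes that carry the CARE core in their windows, Trib3, Chac1 and Asns, had the lowest means over the 6 libraries. Sesn2 and Trib3 could not be ordered in PC, with 0.830 ± 0.125 and 0.750 ± 0.557 FPKM. Nor could Trib3, Chac1 (0.400 ± 0.288 FPKM) and Asns (0.300 ± 0.157 FPKM) be ordered among themselves in PC.

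Eif2ak3 encodes PERK, and its row lies on chromosome 6 (GRCm39, 70821499 to 70882229, plus strand). It had 11.2, 17.9 and 7.82 CPM in PF1, PF2 and PF3 and 15.5, 14.0 and 16.9 CPM in PC1, PC2 and PC3. The highest and the lowest values were both in PF, so the groups overlapped and the spread was 5.15 CPM (SD) in PF against 1.48 CPM in PC. The log2 fold change was -0.33 (SE 0.29, edgeR adjusted p = 0.592), and it was -0.71 without PF2. With library totals alone it was -0.0017, and the group means on the FPKM scale were 2.26 ± 0.686 in PF and 2.27 ± 0.206 in PC.

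Atf4 is the factor on which the branch converges, and it lies on chromosome 15 (80139385 to 80141742, plus strand). It had 139.9, 182.5 and 100.5 CPM in PF1, PF2 and PF3 and 100.1, 140.8 and 104.3 CPM in PC1, PC2 and PC3. PF2 stood above every PC library, PF1 and PF3 lay inside the PC range, and the groups overlapped. The means were 141.0 ± 41.0 CPM in PF and 115 ± 22.4 CPM in PC (SD, n = 3), with a log2 fold change of 0.29 (SE 0.25, edgeR adjusted p = 0.593). Without PF2 it was 0.055, and with library totals alone it was 0.63 (unadjusted p = 0.0316, edgeR adjusted p = 0.120).

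Atf5 encodes a related leucine zipper factor that is itself regulated through upstream open reading frames and is abundant in liver (chromosome 7, 44461680 to 44466082, minus strand). It had 282, 189 and 214 CPM in PF and 181, 162 and 292 CPM in PC, in replicate order. The 2 highest libraries, PC3 and PF1, were of different diets. On the log2 scale the fold change was 0.11 (SE 0.27, edgeR adjusted p = 0.872) and turned to -0.072 without PF1 and to -0.052 without PC2.

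Ddit3 encodes CHOP, the factor that acts with ATF4 when stress persists (chromosome 10, 127126643 to 127132157, plus strand). It had 6.00, 12.1 and 7.54 CPM in PF and 5.97, 8.01 and 8.18 CPM in PC. PF2 alone stood above the PC range, and the log2 fold change of 0.20 (SE 0.29, edgeR adjusted p = 0.761) turned to -0.13 without it. The 3′ end of the row overlaps that of the methionyl-tRNA synthetase gene Mars on the opposite strand by 68 bases, and Mars had 487% of the counts of Ddit3. The sources used here do not say whether counting used the strand, so reads in that stretch could belong to either gene. A second row of 105 exonic bases with the symbol Ddit3, inside the first, had 0 counts and was not used.

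Asns, which makes asparagine from aspartate and glutamine and is a textbook ATF4 target, was lower in PF. Its row (chromosome 6, 7675169 to 7693254, minus strand) had 2, 5 and 2 counts in PF1, PF2 and PF3 and 22, 6 and 18 counts in PC1, PC2 and PC3, or 0.101, 0.303 and 0.0937 CPM against 1.41, 0.381 and 1.03 CPM. Every PF library lay below every PC library, but PF2 and PC2 were 1 count apart. Groups that did not overlap in this direction were found in 6.37% of genes with at least 1 count. The log2 fold change was -2.54 (SE 0.70) on the unfiltered table, with an edgeR adjusted p = 0.0566 that misses 5%, and DESeq2 gave an adjusted p = 0.0759. The edgeR adjusted p was 0.00883 without PC2, 0.025 without PF2 and 0.0446 with library totals alone, and it ranged from 0.00883 to 0.466 over the alternatives. Over each group's summed counts, 46 in PC and 9 in PF, the level in PC was 6.05 times that in PF (95% exact interval 2.92 to 14.0, which covers counting error only).

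Chac1, whose product degrades glutathione, is usually one of the most inducible genes of the branch (chromosome 2, 119181710 to 119184862, plus strand). It had 9, 4 and 16 counts in PF and 18, 2 and 17 counts in PC. The 2 lowest libraries were PC2 and PF2, 1 of each diet. The log2 fold change was -0.64 (SE 0.65, edgeR adjusted p = 0.714), and the ratio of PC to PF over summed counts was 1.51 with a 95% exact interval of 0.903 to 2.54 for counting error only. No difference in Chac1 was detected. Its counts were few, and they also spread within PC beyond counting error. The 95% counting intervals were 10.7 to 28.4 in PC1 and 0.242 to 7.22 in PC2.

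Sesn2 and Ddit4 both restrain mTORC1, Sesn2 as a leucine-binding partner of the GATOR2 complex and Ddit4 (REDD1) through the TSC complex. Sesn2 (chromosome 4, 132219343 to 132237812, minus strand) had 4.13, 6.06 and 6.18 CPM in PF1, PF2 and PF3 and 3.21, 2.80 and 3.78 CPM in PC1, PC2 and PC3. All 3 PF libraries lay above all 3 PC libraries, and 11.8% of tested genes did not overlap in this direction. The means were 5.46 ± 1.15 CPM in PF and 3.26 ± 0.492 CPM in PC (SD, n = 3). This is a 1.67-fold higher level and a log2 fold change of 0.74 (SE 0.25), with an unadjusted p = 0.0185 that did not survive adjustment over all genes in edgeR's test (adjusted p = 0.216) or in DESeq2 (adjusted p = 0.168). Sesn2 passed the filter on low values only through PF, where its mean was 1.78 ± 0.348 FPKM against 0.830 ± 0.125 FPKM in PC, and on the unfiltered table its log2 fold change was 0.71 with an edgeR adjusted p = 0.282. Leaving out each library in turn gave log2 fold changes of 0.64 to 0.91. The edgeR unadjusted p then ran from 0.00720 without PF1 to 0.0614 without PF3. The edgeR adjusted p ran from 0.226 without PF1 to 0.548 without PC1.

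Ddit4 did not move with Sesn2 (chromosome 10, 59785491 to 59787656, minus strand). It had 11.4, 15.8 and 3.37 CPM in PF and 6.94, 8.52 and 12.7 CPM in PC. PF2 was the highest library and PF3 the lowest, so the PF group enclosed the whole PC range. Its log2 fold change was 0.11 (SE 0.51, edgeR adjusted p = 0.940) and ran from -0.36 without PF2 to 0.53 without PF3.

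Trib3 and Ppp1r15a belong to the feedback that ends the response. Trib3 is a pseudokinase that binds ATF4 and AKT (chromosome 2, 152179342 to 152185952, minus strand), and it had 40, 19 and 39 counts in PF and 53, 10 and 26 counts in PC, or 2.02, 1.15 and 1.83 CPM against 3.40, 0.636 and 1.49 CPM. Both the highest and the lowest library were in PC. The log2 fold change of -0.17 (SE 0.46, edgeR adjusted p = 0.905) turned to 0.61 without PC1 and to 0.035 without PF2. In both Trib3 and Chac1 the library numbered 2 was the lowest of its group.

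Ppp1r15a encodes GADD34, which brings protein phosphatase 1 to phosphorylated eIF2 (chromosome 7, 45172340 to 45175692, minus strand). It had 7.003, 10.4 and 9.60 CPM in PF and 7.06, 7.94 and 7.33 CPM in PC. PF2 and PF3 were above the PC range and PF1 was just under it. The means were 8.99 ± 1.76 CPM in PF and 7.44 ± 0.452 CPM in PC, and the log2 fold change of 0.27 (SE 0.20) did not pass the test (edgeR adjusted p = 0.525). Scaled by library totals alone it was 0.62 (unadjusted p = 0.0172, edgeR adjusted p = 0.0929). Its row overlaps Tulp2 on the opposite strand, which had 12.8% of its counts.

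Read by library, no order was shared by all 10 genes. PF2 was the highest library in 5 of them, all among the 7 tested, and PC1 in 3, Asns, Chac1 and Trib3. PC2 was the lowest in 4 and PF3 in 3. Over the 7 tested genes the median difference from the PC mean was 0.30 on the log2 scale in PF1, 0.68 in PF2 and 0.043 in PF3, against -0.18, -0.093 and 0.16 in PC1, PC2 and PC3, while the median of all tested genes was at most 0.034 in every library. The median log2 fold change of the 7 was 0.20 beside 0.019 for all tested genes, with 6 above 0 and 1 below. Without PF2 it was 0.055 beside 0.014, with 4 above 0 and 3 below. With library totals alone the median of the 7 was 0.53, but that of all tested genes was 0.39. Under that scaling Atf4, Sesn2 and Ppp1r15a were at an unadjusted p under 0.05 beside 33.5% of all tested genes, and 0 of the 7 passed 5% beside 1.67%. The largest of these, Sesn2, had a log2 fold change of 1.10 (edgeR adjusted p = 0.0562).

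**Figure D2:**
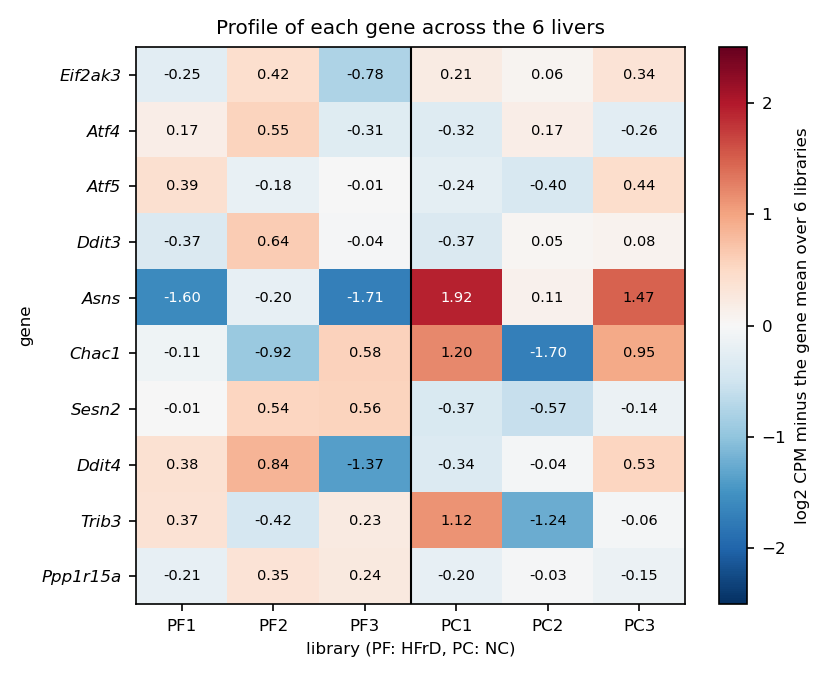
Heat map of log2 CPM (prior count 0.5) minus the gene's mean over the 6 libraries, with genes in rows by role and libraries in columns. Red in PF2 is shared by Eif2ak3, Atf4, Ddit3, Ddit4, Sesn2 and Ppp1r15a, whereas Asns, Chac1 and Trib3 have their deepest colours in PC1 or PC2, and the range over libraries runs from 0.56 in Ppp1r15a to 3.62 in Asns.

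**Figure D3:**
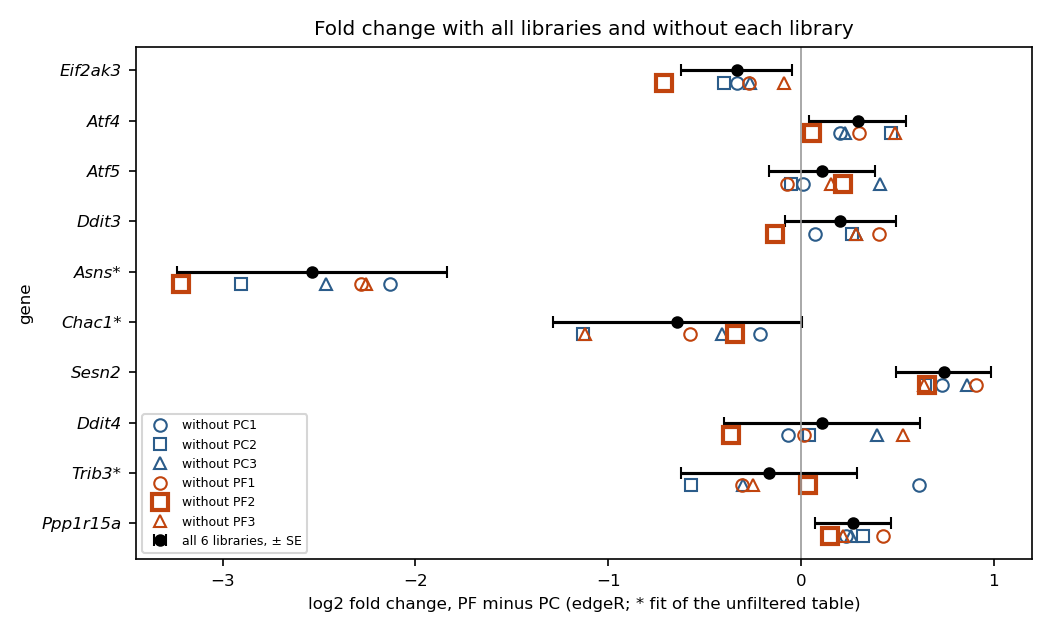
Log2 fold change of PF against PC for each gene with all 6 libraries (black, with SE) and with each library left out (open symbols, the larger square for the fit without PF2). The symbols of Sesn2 (0.64 to 0.91) and Asns (-3.22 to -2.13) stay on one side of 0 and farthest from it. Those of Eif2ak3, Atf4, Chac1 and Ppp1r15a also keep their sign, while those of Atf5, Ddit3, Ddit4 and Trib3 cross 0.

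Upstream of ATF4, a list of 20 genes for the eIF2 kinases, eIF2, eIF2B and the phosphatase, which includes Eif2ak3 and Ppp1r15a, had 19 tested genes, of which 6 were higher and 13 lower in PF (median log2 fold change -0.18). At an unadjusted p under 0.05, 2 were lower and 0 higher, beside 7.90% and 9.13% of all tested genes. Dnajc3, a co-chaperone that inhibits PERK, had 120, 204 and 208 CPM in PF1, PF2 and PF3 against 332, 212 and 363 CPM in PC1, PC2 and PC3 (log2 fold change -0.77, edgeR adjusted p = 0.252). Eif2b4, the delta subunit of the exchange factor eIF2B, had 18.2, 50.8 and 15.7 CPM in PF against 72.1, 80.1 and 68.4 CPM in PC. PF1 and PF3 were far below the PC range and PF2 was between, and the log2 fold change was -1.38 (SE 0.43, edgeR adjusted p = 0.198, DESeq2 adjusted p = 0.0289). It was the 1 gene of the 19 that DESeq2 called, beside 4.60% of all tested genes. Without PF2, Eif2b4 was called by edgeR (log2 fold change -2.12, adjusted p = 0.00358), as were 3.75% of all tested genes. As PF2 is the PF library nearest to PC, the call without it is no support for a difference. Eif2b4 shares its locus with Snx17 on the opposite strand, which had 27.6% of its counts. With library totals alone the direction of this list flipped, with 16 of 19 genes higher and a median of 0.21 beside 0.39 for all tested genes.

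Downstream, the amino acid supply genes that ATF4 regulates were divided. Of 21 genes, Asns among them, 10 were tested, 5 higher and 5 lower, with a median log2 fold change of 0.081. Slc1a5, a transporter of glutamine and other neutral amino acids, was the only one at an unadjusted p under 0.05, beside 17.0% of all tested genes. It had 14.3, 8.85 and 7.07 CPM in PF against 2.83, 7.69 and 3.66 CPM in PC (log2 fold change 1.09, SE 0.42, edgeR adjusted p = 0.259). Slc6a9, a glycine transporter chosen after its values were seen, had 2.92 and 6.61 CPM in PF1 and PF3 but 74.6 CPM in PF2, inside the PC range of 68.0 to 89.0 CPM. It was not called with all libraries (edgeR adjusted p = 0.501), and DESeq2 gave it no p-value. Without PF2 its log2 fold change was -4.02 (edgeR adjusted p = 0.00403), and 3.75% of all tested genes were called in that fit. As the gene was chosen with these values seen, the call without PF2 is no support for a difference.

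The cytosolic aminoacyl-tRNA synthetases, which charge tRNAs with amino acids and include several ATF4 targets, were lower in PF in 19 of 20 tested genes, beside 47.8% of all tested genes. Their median log2 fold change was -0.22. At an unadjusted p under 0.05, 5 were lower and 0 higher, beside 7.90% and 9.13% of all tested genes. Of the 20, 8 had every PF library below every PC library (beside 11.1% of all tested genes), and 0 passed 5% in edgeR or DESeq2. Gars (glycine) had 28.9, 27.6 and 34.8 CPM in PF against 45.4, 39.2 and 42.2 CPM in PC, with a log2 fold change of -0.47 (SE 0.15, edgeR adjusted p = 0.198). Eprs (glutamate and proline) had 81.1, 72.8 and 75.1 CPM in PF against 111.7, 84.9 and 109 CPM in PC (log2 fold change -0.42). Cars (cysteine) took the pattern of Eif2b4, with 26.0 and 25.5 CPM in PF1 and PF3, 76.8 CPM in PF2 and 85.5 to 98.8 CPM in PC. Without PF2, edgeR called Cars (log2 fold change -1.86, adjusted p = 0.00358), the only 1 of the 20, beside 3.75% of all tested genes. That fit leaves out the PF library nearest to PC, so the call is no support for a difference. The direction of the list depends on the scaling. With library totals alone 15 of the 20 were higher, with a median of 0.14 that was still under the 0.39 of all tested genes.

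Other genes that ATF4 or CHOP regulate showed no common direction, with 9 of 16 tested genes higher and 7 lower (median 0.067). At an unadjusted p under 0.05, 2 of the 16 were higher and 1 lower, beside 9.13% and 7.90% of all tested genes. DESeq2 called 1 higher and 1 lower, beside 4.60% of all tested genes in either direction. Vldlr, a lipoprotein receptor that ATF4 induces in liver, had 22.1, 6.06 and 21.3 CPM in PF against 1.80, 4.64 and 1.09 CPM in PC, without overlap. Its log2 fold change was 2.72 (SE 0.64), which did not pass in edgeR (adjusted p = 0.159) and passed in DESeq2 (adjusted p = 5.24e-04). Vldlr passed the filter on low values only through PF (1.95 ± 1.18 against 0.223 ± 0.172 FPKM in PC), so its place among the tested genes is no support for a difference. On the unfiltered table its log2 fold change was 2.69 (edgeR adjusted p = 2.50e-04). Gadd45a, a growth arrest gene, was also higher at an unadjusted p under 0.05 (log2 fold change 0.89, edgeR adjusted p = 0.268), though the groups overlapped, and E230016M11Rik on the opposite strand of its locus had 27.9% of its counts. Bcl2l11 (BIM), a death gene that CHOP induces, was lower in all 3 PF libraries (5.84, 9.51 and 6.79 CPM against 15.2, 11.4 and 13.3 CPM), with a log2 fold change of -0.85 (edgeR adjusted p = 0.176, DESeq2 adjusted p = 0.0388). Fgf21, a liver hormone that ATF4 induces, was chosen after its values were seen and had 0.504, 5.58 and 2.95 CPM in PF against 0.257, 1.78 and 0.401 CPM in PC (log2 fold change 1.88, edgeR adjusted p = 0.354). It too passed the filter only through PF (3.39 ± 2.58 against 0.767 ± 0.811 FPKM), and on the unfiltered table the edgeR adjusted p was 0.147. With library totals alone 15 of the 16 genes of this list were higher, with a median of 0.41 beside 0.39 for all tested genes.

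The IRE1 and ATF6 arms of the unfolded protein response, which share PERK's trigger, were lower as counted by gene. Of 15 tested genes 14 were lower in PF, beside 47.8% of all tested genes. At an unadjusted p under 0.05, 9 of these were lower, beside 7.90% of all tested genes. The median log2 fold change was -0.66. None was called by edgeR and 5 were called lower by DESeq2, beside 2.62% of all tested genes. Set against the PC mean, the list's median was -0.85 for PF1 and -0.89 for PF3 but -0.31 for PF2, level with -0.30 for PC2, and without PF2 its median log2 fold change was -0.93. Scaled by library totals alone, 11 were lower and 4 higher, with a median of -0.29 beside 0.39 for all tested genes. The chaperone gene Hspa5 (BiP) had a log2 fold change of -1.06, and Pdia4, Creld2 and Sdf2l1, further endoplasmic reticulum proteins, had -1.01, -1.60 and -1.51. In the same libraries Eif2ak3 had -0.33 and Ddit3 0.20, and the difference between these arms and the ATF4 branch was not tested. In the promoter windows, 5 of the 13 genes of this list with a window held the endoplasmic reticulum stress element and 0 held the CARE core. The CARE core was in 5 of 17 amino acid supply genes, 5 of 12 synthetase genes and 6 of 17 other ATF4 or CHOP targets.

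**Figure D4:**
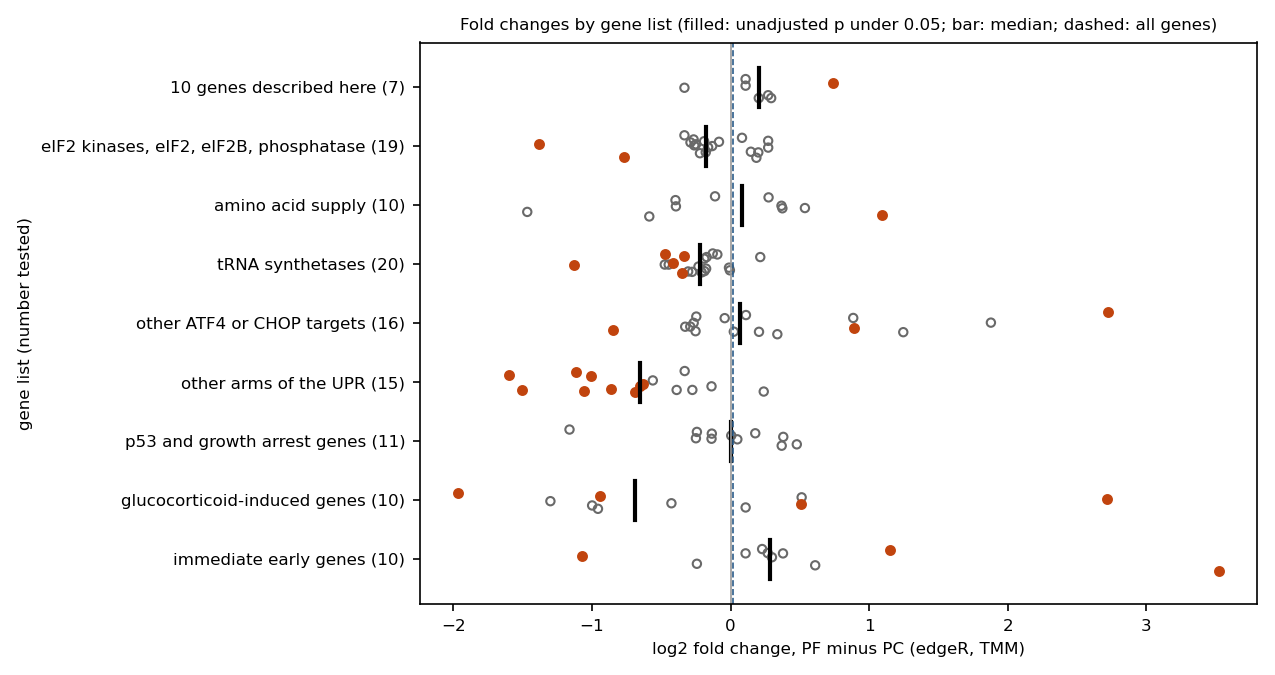
Log2 fold change of PF against PC (edgeR, TMM scaling) for each tested gene of the 10 described here and of 8 related lists, with the number tested in brackets. Filled points have an unadjusted p under 0.05, thick bars are list medians and the dashed line is the median of all tested genes (0.019). The median is 0.20 for the 7 stress genes, -0.22 for the tRNA synthetases and -0.66 for the other arms of the unfolded protein response.

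Several of the 10 genes also answer to other inputs, and lists for these were read beside them. Sesn2 and Ddit4 can be induced through p53. Of 11 tested p53 and growth arrest genes 6 were higher and 5 lower (median 0.0045). At an unadjusted p under 0.05 there were 0 of the 11, beside 17.0% of all tested genes. With library totals alone 10 were higher and 1 lower (median 0.29). Ddit4 also responds to glucocorticoids. Of 10 tested glucocorticoid-induced genes 4 were higher and 6 lower (median -0.69). Set against the PC mean, the list's median was -1.32 for PF1 and -0.51 for PF3 but 0.12 for PF2. At an unadjusted p under 0.05, Dusp1 (log2 fold change 2.71) and Tsc22d3 (0.51) were higher, beside 9.13% of all tested genes. Klf9 (-0.95) and Mt2 (-1.97) were lower at that threshold, beside 7.90% of all tested genes. DESeq2 called Dusp1 (adjusted p = 8.93e-07) and no other gene of this list, beside 4.60% of all tested genes. Dusp1, a phosphatase, shares its locus with Ergic1 on the opposite strand, which had 121% of its counts. Ppp1r15a can rise with the immediate early genes, of which 8 of 10 tested were higher and 2 lower (median 0.28), beside 47.8% of all tested genes lower. In this list Fos had 0.857, 2.12 and 13.5 CPM in PF against 0.343 to 0.706 CPM in PC, Zfp36 had a log2 fold change of 1.15 and Myc of -1.07. DESeq2 called Zfp36 (adjusted p = 0.00430) and Fos (adjusted p = 0.00377), 2 of the 10, beside 4.60% of all tested genes. Fos passed the filter on low values only through PF (2.75 ± 3.61 against 0.180 ± 0.0700 FPKM). The part of these inputs in the levels of the stress genes was not tested.

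The tested genes whose profiles over the 6 libraries were nearest to that of Atf4 were Trim39, Haus3, Gm14539, Nkiras1 and Atp5e, with a root mean square difference of 0.0339 to 0.0737 on the centred log2 scale beside a median of 0.417 over 10554 genes. Trim39, for example, had 30.4, 42.1 and 22.5 CPM in PF against 22.7, 30.4 and 23.5 CPM in PC. For Sesn2 the nearest were Snapc3, Osbpl8, Inpp5e, H2-Q5 and Zfp595, at 0.102 to 0.135 beside a median of 0.499. The other tested stress genes were not among the 5 nearest of either, and Asns, Chac1 and Trib3, being untested, were not compared.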

How the data were processed

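Liver RNA of 3 PF and 3 PC mice was compared, with groups taken from the titles and treatments of the labels. Per the file headers, the deposited table holds a count and an FPKM value for each gene and library, on GRCm39. The deposited counts are whole and raw. The deposited FPKM values equal the count scaled by exonic length and library total for 100% of values (tolerance 0.005). GRCm39, HTSeq 0.6.1, HISAT2 2.2.1, DESeq2 and cutadapt 1.9.1 are named in the submitters' processing notes, with no role or setting, and the sources used here give no strand setting or annotation release. Symbols were matched by identifier for 52073 of 56691 genes. Gcn1 was not matched.

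Testing used edgeR 4.0.16 in R 4.3.3 (quasi-likelihood, two-sided), with TMM factors, no covariate, a filter at a mean of 1 FPKM (10756 genes) and Benjamini-Hochberg adjustment at 5%. DESeq2 (1.42.0), limma (3.58.1) on log2 FPKM with a pseudocount of 1 or 0.1, other scalings and filters, a replicate block and each library left out were alternatives. Each standard error is the fold change on the log2 scale over the root of its F value. An exact permutation test of 3 against 3 cannot reach a p below 0.1 and was not used. No libraries of a group agreed within sampling noise. The labels name no litter or batch, so p-values cover only the spread among these 6 livers, which may be partly technical. On simulated counts with 200 of 10756 genes changed, 3.08% of 1.5-fold, 22.9% of 2-fold and 84.6% of 4-fold changes were recovered, and 11 unchanged genes were called. The simulated libraries of a group shared a mean for each gene, so none stood apart from its group as PF2 did. The share recoverable in these data may therefore be lower.

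The 10 genes and the lists were chosen with earlier results of these data known. From each list up to 4 genes with the smallest unadjusted p were named where it was under 0.05. A few further genes of the lists are not reported here. For Atf4, and for Sesn2 as the tested one of the 10 with the largest change, the 5 nearest profiles were named.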

Additional observations from a re-analysis of the deposited data

How the results depend on the processing

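None of the 10 genes was called among the genes tested under any of the 17 alternatives, apart from Asns, which passed in 3 of the fits of the unfiltered table given with its values. The count over all genes, 0 in the edgeR test and 1832 at an unadjusted p under 0.05, was 495 with DESeq2, 555 without a filter, 180 with library totals alone, 1 with edgeR's own expression filter, 2 with limma on log2(FPKM + 0.1) and 4 on log2(FPKM + 1). It ran from 0 to 403 with a library left out, with 403 without PF2 and 1 without PF1. With library totals alone 89.4% of the calls were higher in PF, against 43.0% with DESeq2, and the median of all tested genes moved by 0.37 on the log2 scale.

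The log2 fold change turned over for 4 genes. Atf5 ran from -0.072 to 0.41 with a library left out (-0.072 without PF replicate 1, -0.052 without PC replicate 2), and Ddit3 from -0.13 (without PF2) to 0.40. Ddit4 ran from -0.36 (without PF2) to 0.53, with -0.067 without PC1. Trib3 ran from -0.57 to 0.61 (0.61 without PC1, 0.035 without PF2) and was 0.28 with library totals alone, 0.41 with limma on log2(FPKM + 0.1) and 0.16 on log2(FPKM + 1). The cause was not tested. The labels give both groups the numbers 1 to 3. The deviations of same-numbered libraries from their group means had correlations of -0.136, 0.238 and 0.0826. With 3 libraries in each group these values cannot tell whether a number stands for a shared litter or batch. With the replicate block 0 genes were called, Ddit4 had -0.039 and Trib3 0.022, and no call on the 10 genes changed. PF1 and PF3 did not correlate best with their own number, whereas PF2 did (0.238 with PC2, 0.0127 with PC1 and -0.294 with PC3).

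Depth limits Asns (9 counts in PF) and Chac1 (29 counts in PF) most, and Chac1 also varied within PC beyond counting error. With 3 libraries in each group, differences of 2-fold or less were mostly not recoverable.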

Other observations

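Read over all tested genes, those of the lists included, the 212 genes with the CARE core in their promoter window had 112 higher and 100 lower in PF. Their median log2 fold change was 0.026 beside 0.019 for all tested genes. At an unadjusted p under 0.05, 25 of the 212 were higher and 13 lower, beside 9.13% and 7.90% of all tested genes. The 15 tested genes with the endoplasmic reticulum stress element had 4 higher and 11 lower, beside 47.8% of all tested genes lower. At an unadjusted p under 0.05, 6 of the 15 were lower, beside 7.90% of all tested genes. Their median was -0.28, and it was -0.77 without PF2 and 0.030 with library totals alone. Of the lists, Calr, Creld2, Hsp90b1, Hspa5, Syvn1 and Dnajc3 held this element, and all but Syvn1 were lower at an unadjusted p under 0.05. The result for the 15 genes therefore rests largely on genes already counted in the lists and is not separate from them.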
